A study of Mus musculus with 18 samples.

Results

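Loss of the peptidase gene Prep was examined in M1 macrophages, by setting 3 libraries of Prep-/- M1 cells against 3 libraries of Prep+/- M1 cells across all genes. They belong to a series of 18 libraries, in which both genotypes were also kept unstimulated (M0) or given IL-4 and IL-13 (M2), with 3 libraries in each of the 6 groups. Bone marrow cells first spent 7 days in M-CSF, the growth factor that drives macrophage differentiation (50 ng/ml), and M1 cells then received LPS, a bacterial cell wall lipid, at 50 ng/ml for 24 h. M2 cells received IL-4 at 20 ng/ml and IL-13 at 20 ng/ml for 24 h. The Prep-/- cells came from knockout mice on a C57BL6/J background, in which every cell lacks the gene. The Prep+/- cells came from heterozygous littermates, so the comparison is with mice that carry 1 intact allele and not with wild-type mice. The age of the marrow donors and the animal behind each library are not given in the sources used here. The replicates are called biological by the study. P-values measure the spread between libraries only, which was estimated within the 6 groups over all 18 libraries.

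Prep encodes prolyl endopeptidase, a serine peptidase that cuts short peptides after proline. LPS is sensed by Tlr4 with Cd14 and Ly96, and the adaptors Myd88 and Ticam1 then carry separate signals. The Myd88 arm drives cytokine and chemokine genes through NF-kappaB, and the Ticam1 arm drives interferon-beta, whose receptor signals through STAT factors to the interferon-stimulated genes. Macrophages that respond to LPS also rewire glycolysis, arginine use and the synthesis of sterols and fatty acids.

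The 6 M1 libraries held 19549993 to 22598279 counts, and 12021 of 16314 gene symbols had enough counts to be tested. A gene was called when its adjusted p was under 0.05 and its fold change over 1.5. Prep itself, on chromosome 10 at 44943130 to 45043294 of GRCm39, checked the labels: its normalized counts were 681, 551 and 663 in Prep+/- M1 and 35.2, 47.0 and 59.2 in Prep-/- M1. The log2 fold change was -3.74 ± 0.19 (SE, n = 3 and 3, adjusted p = 8.29e-09), with no overlap. Across all genes, 1476 were higher and 1224 lower in Prep-/- M1, which is 12.3% and 10.2% of those tested and 22.5% together, with a median log2 fold change of 0.04. The libraries of the genotypes did not overlap for 56.9% of genes, 29.8% with Prep-/- higher and 27.1% with Prep-/- lower. The first principal component held 71.6% of the variance and separated the genotypes, from -44.1 to -28.7 in Prep+/- and at 54.8, 28.2 and 28.3 in Prep-/-. Prep-/- M1 replicate 1 therefore stood furthest from the Prep+/- libraries, and it held the most extreme of the 3 Prep-/- values in 76.2% of genes called higher and 83.3% of genes called lower. Without it, 961 genes were higher and 781 lower. The macrophage label held in all 6: the 10 macrophage markers summed to 39754 to 42701 CPM (counts scaled to a common library total) in Prep+/- and 28890 to 36052 in Prep-/-, with 1 of 10 called higher and 0 lower. Lyz2 made up most of this sum, and C1qa, Cd68 and Adgre1 were present throughout. Neutrophil and precursor markers summed to 204 to 242 CPM in Prep+/- and 61.1 to 93.7 in Prep-/-, with 0 of 8 tested called higher and 3 called lower, and Elane and Mpo stayed at or below 0.32 CPM. Mmp8 and S100a8 made up most of this sum and are also described as genes of their own. The specific granule genes Ltf and Ngp ran from 5.77 to 15.4 CPM in Prep+/- and from 4.03 to 13.2 in Prep-/-. Camp, a further marker of this list, had 3.43, 7.36 and 5.01 CPM in Prep+/- and 1.59, 1.91 and 2.18 in Prep-/-, without overlap. The other 8 lists stood at or below 41.3 CPM in every M1 library, with 2 endothelial, 2 T cell and 1 B cell marker called higher in Prep-/-. The part of these cells in any result was not tested, and in bulk RNA fewer cells of a type cannot be told apart from less RNA per cell.

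**Figure D1:**
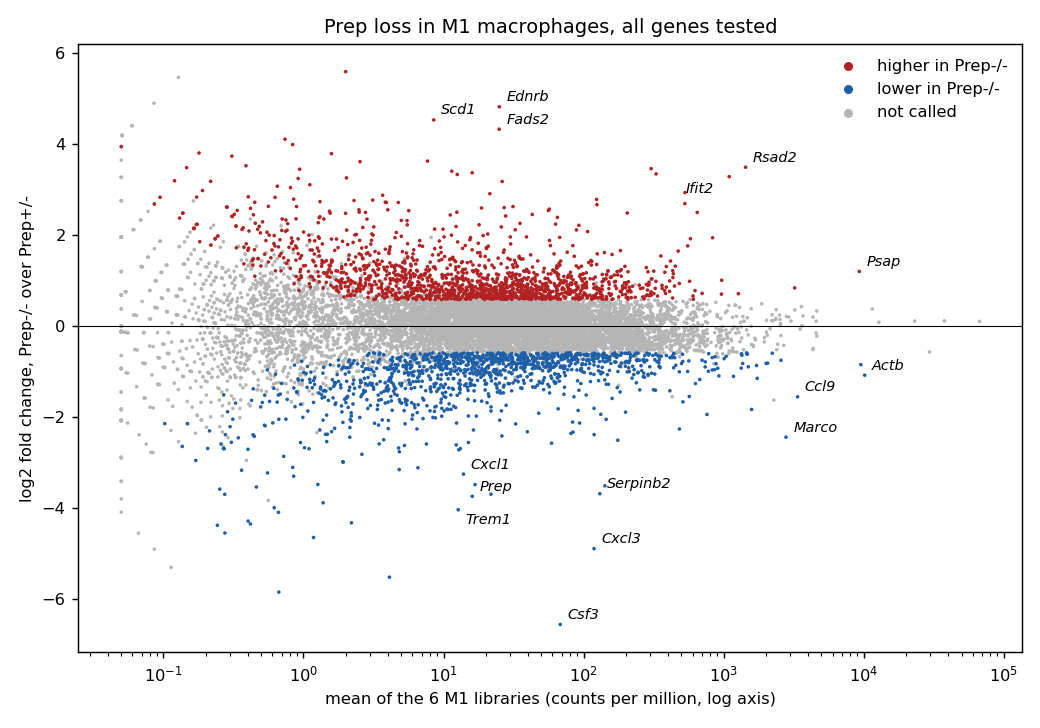
Log2 fold change of Prep-/- over Prep+/- M1 cells (vertical axis) against the mean of the 6 M1 libraries in CPM (horizontal log axis, means under 0.05 drawn at 0.05), 1 point per gene tested. Red points are the 1476 genes called higher, blue points the 1224 called lower and grey points the rest; Csf3 and Cxcl3 lie lowest among the named genes and Ednrb highest.

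Among genes with a mean of at least 5 CPM, the largest rises in Prep-/- M1 were a G protein-coupled receptor, lipid desaturases and interferon-stimulated genes. Ednrb, the endothelin B receptor, had normalized counts of 38.7, 29.7 and 39.8 in Prep+/- M1 and 1581, 744 and 745 in Prep-/- M1. It was 28.3 times higher, the largest rise of all under this rule (log2 fold change 4.82 ± 0.31, adjusted p = 8.44e-08). Scd1, which puts the first double bond into saturated fatty acids, had 13.7, 17.9 and 12.8 in Prep+/- and 311, 428 and 297 in Prep-/- (4.53 ± 0.67, adjusted p = 0.000208). Fads2, the delta-6 desaturase of polyunsaturated fatty acid synthesis, had 77.5, 38.1 and 33.3 in Prep+/- and 869, 1274 and 880 in Prep-/- (4.33 ± 0.62, adjusted p = 0.000155). For both desaturases every Prep-/- library lay far above the highest Prep+/- library, and replicate 2 was the highest. Phgdh, the first enzyme of serine synthesis, whose pseudogenes could share its reads, rose from 50.1, 75.0 and 53.9 to 486, 771 and 599 (3.37 ± 0.45, adjusted p = 0.0001). Pltp, the phospholipid transfer protein, rose from 1356, 1056 and 1334 to 19050, 9808 and 9239 (3.35 ± 0.34, adjusted p = 1.25e-05). The others of these 12 genes were Wnk2, Rsad2, Fgl2, Lipg, Tlr9, Ifit2 and Calhm6, at log2 fold changes of 3.18 to 3.63. Without Prep-/- M1 replicate 1, Fgl2 was at 2.75, Lipg at 2.60 and Tlr9 at 2.74, all still called.

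The largest falls were led by genes that call in or activate neutrophils. Csf3, which encodes granulocyte colony-stimulating factor, the main driver of neutrophil production, had 2048, 3310 and 3207 normalized counts in Prep+/- M1 and 4.4, 25.6 and 60.3 in Prep-/- M1 (log2 fold change -6.56 ± 0.47, adjusted p = 1.24e-06). Cxcl3, a neutrophil-attracting chemokine, had 3275, 6204 and 5116 in Prep+/- and 143, 138 and 211 in Prep-/- (-4.89 ± 0.27, adjusted p = 1.41e-08). Trem1, an amplifying receptor of myeloid cells, had 499, 548 and 478 in Prep+/- and 13.2, 39.5 and 39.8 in Prep-/- (-4.04 ± 0.37, adjusted p = 5.26e-06). In all 3 genes the lowest Prep+/- library stood many-fold above the highest Prep-/- library. Serpinb2, the inhibitor of plasminogen activators known as PAI-2, fell from 4201, 5355 and 5830 to 146, 419 and 631 (-3.68 ± 0.37, adjusted p = 1.25e-05). Pim2, a survival kinase, fell from 473, 810 and 673 to 35.2, 84.3 and 54.9 (-3.48 ± 0.27, adjusted p = 9.88e-07), but reads of its pseudogenes could be counted with it. Acpp, Upp1, Cxcl1, Draxin, Csta2 and Phlda1 fell by log2 values between -3.69 and -2.69. The call of Phlda1 was lost without Prep-/- M1 replicate 1, Csf3 was at -7.56 without replicate 3 and Draxin at -3.80 without replicate 2.

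**Figure D2:**
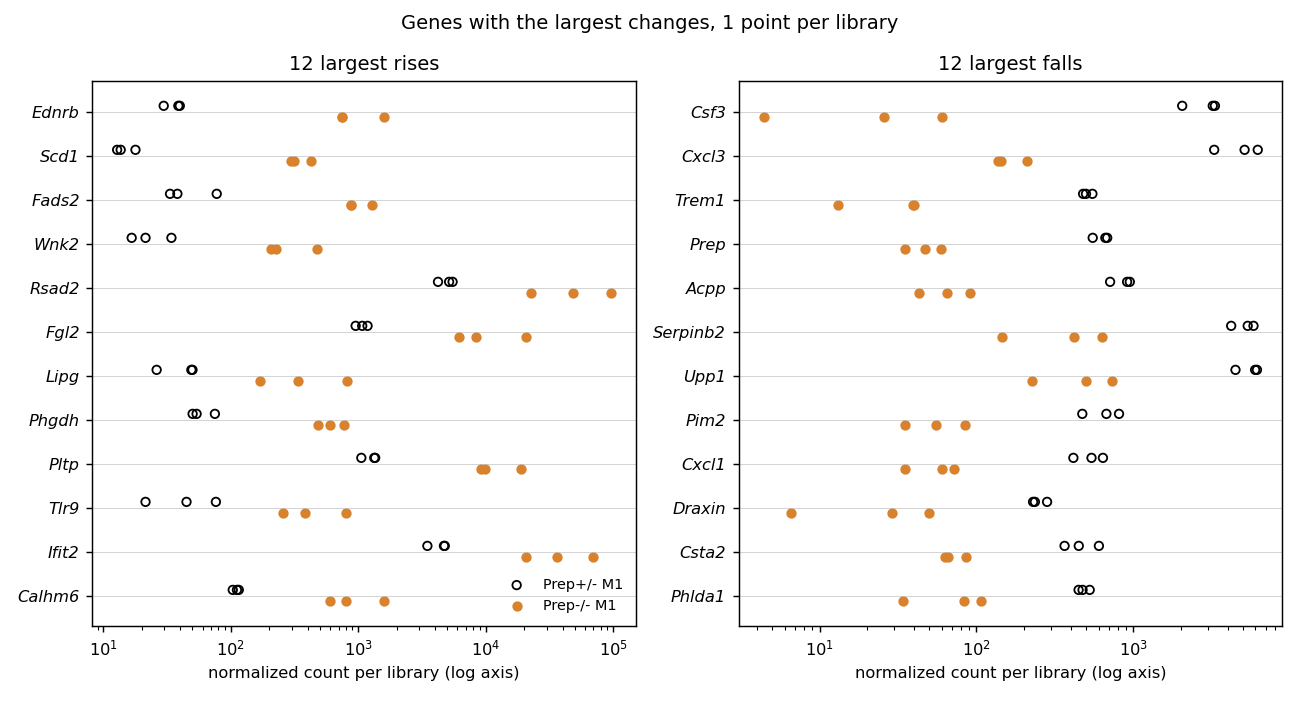
Normalized count of each M1 library (horizontal log axis) for the 12 genes with the largest rise (left) and the 12 with the largest fall (right), with Prep+/- libraries as open circles and Prep-/- libraries as filled circles, 3 each. The genotypes do not overlap for any gene shown, as the rule required, and Lipg and Rsad2 spread most among the Prep-/- libraries on the left, from 22490 to 96600 for Rsad2.

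The genes that took up the largest change in CPM were abundant ones. Psap, the precursor of the lysosomal saposins, rose from 124600, 117100 and 116200 normalized counts to 334100, 238900 and 251400 (log2 fold change 1.20 ± 0.16, adjusted p = 9.03e-05). Actb, a cytoskeletal actin often taken as a reference gene, fell from 243700, 327400 and 305300 to 120500, 126400 and 168500 (-1.08 ± 0.26, adjusted p = 0.00507), and Tmsb4x, which binds actin monomers, fell by 0.85 on the log2 scale (SE 0.19, adjusted p = 0.00328). Actb thus differed between the genotypes by more than the spread in either. Marco, a scavenger receptor for bacteria, fell from 97630, 108100 and 93210 to 13180, 21700 and 20210 (-2.44 ± 0.37, adjusted p = 0.000256). Gpnmb rose (0.84 ± 0.17, adjusted p = 0.00162). The list also held Rsad2 and Ifit2, the chemokine genes Ccl9 and Ccl7, and LOC118568312, whose fall (-1.15 ± 0.40, adjusted p = 0.0352) was lost when any of 4 single libraries was left out.

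Neutrophil-attracting chemokines fell. Of 10 CXC chemokine genes tested, 7 were lower and 2 higher (70.0% and 20.0%, beside 10.2% and 12.3% of all genes). Their median log2 fold change was -1.99. Cxcl1, read by the neutrophil receptor Cxcr2 as are Cxcl2, Cxcl3 and Ppbp, had 415, 640 and 541 normalized counts in Prep+/- and 35.2, 71.5 and 60.3 in Prep-/- (-3.25 ± 0.43, adjusted p = 0.000144). Cxcl2 fell from 4066, 5440 and 5327 to 711, 1341 and 1533 (-2.05 ± 0.38, adjusted p = 0.000966), Ppbp fell by 2.62 and Pf4, or platelet factor 4, by 1.94 on the log2 scale. Cxcl2 and Cxcl3 share a stretch of 320 bases at 91.6% identity, so a part of their reads may be exchanged. Cxcl10, an interferon-induced ligand of Cxcr3, a chemokine receptor of T cells, went the other way, from 3457, 4299 and 4613 to 38310, 9435 and 22170 (2.50 ± 0.54, adjusted p = 0.00253). Cxcl9, another Cxcr3 ligand, had a log2 fold change of 0.97 ± 0.34 (adjusted p = 0.0366), and its call was lost when any of 3 single libraries, Prep-/- replicate 1 among them, was left out. The number called lower was 7 in every fit that left out a library.

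Of 11 CC chemokine genes tested, 4 were lower and 1 higher (36.4% and 9.09%, beside 10.2% and 12.3% of all genes). Their median was -1.0. Ccl9, a myeloid chemokine, fell from 88340, 120000 and 111300 to 26260, 34770 and 47930 (-1.55 ± 0.20, adjusted p = 7.47e-05). Ccl6 fell by 1.0 and Ccl3, or MIP-1 alpha, by 1.41 on the log2 scale, the latter with a call that 3 of the left-out libraries removed. Ccl7, a monocyte attractant, fell from 39810, 62130 and 55170 to 14250, 8673 and 21240 (-1.83 ± 0.52, adjusted p = 0.0128; adjusted p = 0.0913 at most among the alternatives). Ccl2, the main monocyte attractant, had 61510, 77430 and 79920 against 20150, 16400 and 34370, without overlap, but did not pass the test (-1.63 ± 0.72, adjusted p = 0.089). It was called lower when the M1 libraries were fitted alone, and when all libraries were fitted with the replicate number as a block. Ccl5 had 68420, 80430 and 81570 against 84130, 68540 and 79180, and the groups overlapped. Ccl8 rose from 142, 134 and 209 to 1918, 390 and 647 (2.61 ± 0.48, adjusted p = 0.000893), and without Prep-/- M1 replicate 1 its log2 fold change was 1.67. Without Prep-/- M1 replicate 2, 2 of the 4 lower calls of this list were left.

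Among 15 interleukin and Tnf genes, 7 were lower and 3 higher (46.7% and 20.0%, beside 10.2% and 12.3% of all genes). Their median was -0.58. The lower ones held the acute inflammatory cytokines. Il1b had 12910, 18850 and 19020 normalized counts in Prep+/- and 2036, 4321 and 4233 in Prep-/- (-2.26 ± 0.37, adjusted p = 0.000385), and Il1a fell by 2.36 (SE 0.24, adjusted p = 1.25e-05). Il12b, a subunit of IL-12 and IL-23, fell from 321, 531 and 494 to 49.5, 82.2 and 88.3 (-2.61 ± 0.34, adjusted p = 0.000231). All 3 of these genes had every Prep-/- library below every Prep+/- library. Il6 (-1.33 ± 0.40, adjusted p = 0.0177) and Tnf (-1.35 ± 0.49, adjusted p = 0.0407) also fell, but Il6 lost its call without any of 3 single libraries and Tnf without any of 5, Prep-/- replicate 2 among them in each case, and DESeq2 did not call Tnf. Il1rn, the IL-1 receptor antagonist, had 28770, 26390 and 30090 against 32820, 19940 and 31620, and Il10 had 152, 313 and 228 against 275, 70.4 and 187, with overlap in each. The cytokines that rose were Il15 (1.21 ± 0.25), Il27 (1.0 ± 0.28) and Tnfsf15 (1.09 ± 0.36). Without Prep-/- M1 replicate 1 only 1 of these 3 calls was left: Il27 was at 0.78 (adjusted p = 0.0769), and Tnfsf15 lost its call in 5 of 6 fits without 1 library. Of 24 genes of the IL-17-type response, which largely repeats the cytokines and chemokines above, 14 were lower (58.3%) and 0 higher. Each fit without 1 library gave fewer, from 9 (without Prep+/- replicate 3 or Prep-/- replicate 2) to 12. The list also held S100a8, a calcium-binding alarmin, which fell from 787, 1384 and 1117 to 409, 536 and 495 (-1.19 ± 0.24, adjusted p = 0.00167), while Lcn2 (-0.42 ± 0.32) and Ptgs2 (0.10 ± 0.44) did not pass.

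Proteases of matrix breakdown were more often lower than higher. Of 17 metalloproteinase and plasminogen genes, 8 were lower and 3 higher (47.1% and 17.6%, beside 10.2% and 12.3% of all genes). Their median was -1.14. Mmp8, the neutrophil-type collagenase, fell from 3210, 3094 and 2602 to 399, 591 and 782 (-2.33 ± 0.24, adjusted p = 1.41e-05), Mmp27 fell by 1.47, Mmp13 by 1.94 and Plaur, the urokinase receptor, by 2.38 on the log2 scale. Mmp9 (-2.41 ± 0.91, adjusted p = 0.049) and Mmp12 (-1.85 ± 0.70, adjusted p = 0.0475) passed narrowly, and their calls did not hold without most single libraries. Timp1, an inhibitor of metalloproteinases, rose from 106, 107 and 123 to 1306, 318 and 411 (2.60 ± 0.66, adjusted p = 0.00692). Without Prep-/- M1 replicate 1 its log2 fold change was 1.69 (adjusted p = 0.0685), and all 3 genes called higher in this list lost the call.

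Of 19 genes of the LPS receptor and its adaptors, 2 were higher and 1 lower (10.5% and 5.26%, beside 12.3% and 10.2% of all genes). Tlr4 rose from 1457, 1280 and 1354 to 2447, 2206 and 2362 (0.78 ± 0.12, adjusted p = 0.000237), and Cd14, its coreceptor, fell from 21350, 28260 and 25980 to 11780, 13490 and 14530 (-0.93 ± 0.19, adjusted p = 0.00176). Myd88 (-0.09 ± 0.09) and Ticam1 (0.22 ± 0.11) did not pass, while Ticam2, the bridging adaptor of Ticam1, rose by 0.68 on the log2 scale, with a call lost without Prep+/- replicate 2 or without Prep-/- replicate 1 (adjusted p = 0.0648). Among 18 NF-kappaB subunits and inhibitors, 3 were higher and 0 lower (16.7% higher), with a median of 0.12. Rela had 2338, 2240 and 2297 normalized counts against 2793, 2223 and 2311, with overlap, and Nfkb1 had 2935, 2325 and 2729 against 1807, 1872 and 1799 (-0.54 ± 0.17, under the fold minimum). None of the 3 calls (Rel, Tnip3 and Ikbkg) held without Prep-/- M1 replicate 1. Of 19 immediate-early and phosphatase genes, 2 were higher and 4 lower (10.5% and 21.1%), and without Prep-/- M1 replicate 1 these counts were 1 and 2. Fosl1 lost its call in all 6 fits without 1 library, and Dusp1 and Dusp6 in 4 of 6 each. Atf3, a repressor induced by stress, rose from 3935, 4032 and 4191 to 13400, 6422 and 8301 (1.21 ± 0.24, adjusted p = 0.00132), and Ier3 fell by 1.14 (SE 0.21, adjusted p = 0.000952). Egr1 ran from 504 to 1093 in Prep+/- and from 48.4 to 890 in Prep-/- and did not pass.

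Interferon-stimulated genes were called in 1 direction only. Of 29 type I interferon-stimulated genes, 13 were higher and 0 lower, which is 44.8% beside 12.3% of all genes, with a median log2 fold change of 0.62. Rsad2, or viperin, an antiviral enzyme, had 5157, 4220 and 5491 normalized counts in Prep+/- M1 and 96600, 22490 and 48390 in Prep-/- M1 (3.49 ± 0.48, adjusted p = 0.000116). Ifit2, which binds viral RNA, had 4699, 3483 and 4769 against 69410, 20500 and 36440 (3.29 ± 0.46, adjusted p = 0.000144), and Cmpk2, the neighbour of Rsad2, had 2628, 2153 and 2995 against 33180, 8111 and 18200 (2.94 ± 0.41, adjusted p = 0.000126). Prep-/- replicate 1 was the highest and replicate 2 the lowest of the Prep-/- libraries in these 3 genes, and without replicate 1 Rsad2 was at 2.83 and Cmpk2 at 2.33. Other members at high level did not pass: Isg15 had 10130, 13730 and 13720 against 22560, 12400 and 17940 (0.49 ± 0.32), and Irf7, the factor that amplifies interferon production, had 48590, 50820 and 52910 against 61520, 48570 and 58790 (0.15 ± 0.34), both with overlap. Ifit3 (1.76 ± 0.41) and Ifit3b are 97.2% identical and may share reads. In all 13 genes called higher, Prep-/- M1 replicate 1 was the highest library, and without it 9 were called.

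The guanylate-binding proteins and immunity-related GTPases, which attack the vacuoles of intracellular microbes, had the largest share of members called in 1 direction: 13 of 15 were higher and 0 lower, 86.7%, with a median of 1.40. Gbp5, which also promotes inflammasome assembly, had 715, 634 and 734 normalized counts in Prep+/- and 5285, 1720 and 2672 in Prep-/- (2.22 ± 0.35, adjusted p = 0.000313). Gbp2 had 4664, 4345 and 5008 against 13200, 5943 and 8591 (0.98 ± 0.33, adjusted p = 0.0285), Irgm1 had 5174, 4244 and 5022 against 9431, 5883 and 7818 (0.68 ± 0.19, adjusted p = 0.0119), and Igtp had 2199, 2427 and 2729 against 4690, 2670 and 3731 (0.59 ± 0.20, adjusted p = 0.0264). Gbp2, Gbp5 and Irgm1 kept their genotypes apart, and Igtp did not. Replicate 1 was again the highest library in all 13, and without it 8 were called; the calls of Gbp2, Irgm1 and Igtp were among those lost. In the signalling layer above them, 8 of 19 STAT and SOCS genes were higher (42.1%, beside 12.3% of all genes) and 0 lower. Stat2 rose from 5139, 4056 and 5029 to 15110, 9029 and 11140 (1.31 ± 0.21, adjusted p = 0.00031) and Tyk2 rose by 0.67 on the log2 scale.

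The 250 bases before the start of the canonical annotated transcript are shown for 4 of these GTPase genes, and for Rsad2 and Ifit2. They are shown because interferon signals reach such genes through short promoter motifs. The search, on both strands, was for the interferon-stimulated response element, read as GAAA, any 2 bases and GAAA again, and the gamma-activated site, read as TTC, any 3 bases and GAA. Sequences are from GRCm39, 5′ to 3′ towards the gene, with matches in capitals. They lie at chr3:142326099-142326348 on the plus strand for Gbp2, chr3:142202284-142202533 on the plus strand for Gbp5, chr11:48762248-48762497 on the minus strand for Irgm1, chr11:58089869-58090118 on the plus strand for Igtp, chr12:26506452-26506701 on the minus strand for Rsad2 and chr19:34527795-34528044 on the plus strand for Ifit2. Rsad2 and Ifit2 were added after their values were seen.
Gbp2: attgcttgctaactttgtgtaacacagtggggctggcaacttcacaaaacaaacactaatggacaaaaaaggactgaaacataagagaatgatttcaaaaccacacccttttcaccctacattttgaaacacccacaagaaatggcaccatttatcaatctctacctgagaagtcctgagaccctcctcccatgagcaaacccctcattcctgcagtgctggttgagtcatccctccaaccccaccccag
Gbp5: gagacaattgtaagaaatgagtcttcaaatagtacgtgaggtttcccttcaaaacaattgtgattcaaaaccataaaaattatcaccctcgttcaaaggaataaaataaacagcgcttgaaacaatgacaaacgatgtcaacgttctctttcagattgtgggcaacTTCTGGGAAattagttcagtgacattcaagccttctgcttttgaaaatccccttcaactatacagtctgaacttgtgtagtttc
Irgm1: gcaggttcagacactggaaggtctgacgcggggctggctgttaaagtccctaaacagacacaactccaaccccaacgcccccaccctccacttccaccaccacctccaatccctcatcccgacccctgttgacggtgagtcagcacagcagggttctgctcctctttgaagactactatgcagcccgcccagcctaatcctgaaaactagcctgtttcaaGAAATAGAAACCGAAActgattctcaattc
Igtp: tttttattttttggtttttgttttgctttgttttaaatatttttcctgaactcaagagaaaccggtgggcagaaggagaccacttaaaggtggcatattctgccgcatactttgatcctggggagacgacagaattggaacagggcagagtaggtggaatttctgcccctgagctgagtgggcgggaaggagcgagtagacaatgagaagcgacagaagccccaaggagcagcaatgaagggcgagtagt
Rsad2: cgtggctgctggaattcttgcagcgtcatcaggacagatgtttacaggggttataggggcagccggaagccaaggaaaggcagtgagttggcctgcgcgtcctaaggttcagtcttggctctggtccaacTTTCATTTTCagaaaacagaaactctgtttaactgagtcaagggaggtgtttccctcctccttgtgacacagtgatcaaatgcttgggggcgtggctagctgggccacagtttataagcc
Ifit2: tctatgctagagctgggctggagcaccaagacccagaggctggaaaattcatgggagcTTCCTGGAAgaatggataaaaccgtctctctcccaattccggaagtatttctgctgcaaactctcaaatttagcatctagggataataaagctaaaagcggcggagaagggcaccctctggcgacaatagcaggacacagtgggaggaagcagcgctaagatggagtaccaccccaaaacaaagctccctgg

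Gbp5 held a gamma-activated site 84 to 76 bases before its start and Ifit2 held one at 192 to 184. Irgm1 held 2 overlapping response elements between 30 and 15 bases before its start and Rsad2 held 1 at 120 to 111, while Gbp2 and Igtp held neither motif. Either motif stood in 7 of 15 genes of the GTPase list (46.7%) and in 16 of 28 type I interferon-stimulated genes (57.1%), of which 14 held the response element. Among all 11693 genes with an upstream sequence, 9.48% held either and 3.16% the response element. A match describes the letters only. Only 1 transcript start per gene was searched, and it may not be the one used in these cells. The annotated genes of Gbp5, Irgm1, Igtp and Ifit2 begin further upstream, at 142199739, 48763164, 58089840 and 34527932. The windows of Gbp5, Irgm1 and Igtp thus lie within the annotated gene, and that of Ifit2 does so in part.

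The window of Cxcl3, among the genes with the largest falls, is shown in the same way, with the NF-kappaB consensus of 10 letters searched on both strands. It is chr5:90933712-90933961 on the plus strand, and it was chosen after its values were seen.
Cxcl3: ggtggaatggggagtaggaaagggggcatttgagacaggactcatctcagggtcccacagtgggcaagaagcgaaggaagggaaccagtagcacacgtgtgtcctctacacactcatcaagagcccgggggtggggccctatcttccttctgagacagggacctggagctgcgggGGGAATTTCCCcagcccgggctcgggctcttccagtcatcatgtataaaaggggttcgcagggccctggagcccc

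Cxcl3 held 2 overlapping matches, at 75 to 66 and 74 to 65 bases before its start. Of the 10 CXC chemokine genes 5 held a match, and so did 3 of the 15 interleukin and Tnf genes. The share among all 11693 genes was 4.46%.

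Genes of sterol synthesis rose nearly throughout the pathway. Of 25 mevalonate and cholesterol synthesis genes, 20 were higher and 0 lower (80.0%), with a median log2 fold change of 1.10. At the entry, Hmgcs1 had 1466, 1254 and 1229 normalized counts in Prep+/- and 2924, 3700 and 3967 in Prep-/- (1.42 ± 0.22, adjusted p = 0.000289). In the later sterol steps, Dhcr7 had 398, 362 and 337 against 713, 1203 and 1070 (1.44 ± 0.15, adjusted p = 1.41e-05). In both genes all Prep-/- libraries lay above all Prep+/- libraries, and replicate 1 was the lowest of the Prep-/- libraries. Insig1, the sterol-regulated brake on SREBP processing, rose by 1.34 (SE 0.16, adjusted p = 5.47e-05), Mvd by 1.32, Nsdhl by 1.35 and Lss by 1.48 on the log2 scale. The transcription factor gene Srebf2 (0.64 ± 0.17, adjusted p = 0.00756) also rose, with a call lost without Prep+/- replicate 2 or without Prep-/- replicate 2. Sqle had 1091, 839 and 864 against 837, 1574 and 1588 and did not pass, with Prep-/- replicate 1 below the Prep+/- range. The order of the libraries differed from that in the interferon genes: in 0 of the 20 genes called higher was replicate 1 the highest Prep-/- library, and without it the count was 20. The count fell to 15 at the lowest among the other left-out libraries.

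Fatty acid genes gave a like pattern, with 12 of 17 higher and 0 lower (70.6%, median 0.93). Besides Scd1 and Fads2, Scd2 rose from 4150, 2306 and 2543 to 17680, 22590 and 17900 (2.69 ± 0.46, adjusted p = 0.00052), and Fads1, the delta-5 desaturase, rose from 1568, 1467 and 1399 to 2752, 2968 and 2709 (0.93 ± 0.13, adjusted p = 0.000122). Scd1 and Scd2 are 91.6% identical over 1012 bases, which leaves the split between them uncertain. Acaca (1.05 ± 0.20) and Fasn (1.03 ± 0.28), the carboxylase and synthase of the main pathway, and their regulator Srebf1 (0.62 ± 0.12) rose, and Acly (0.41 ± 0.14) stayed under the fold minimum. The call of Fasn was lost without Prep-/- replicate 2 and that of Srebf1 without Prep+/- replicate 2. Scd1, Scd2 and Fads2 had the largest log2 fold changes among these enzymes, and the differences between enzymes were not tested. Lipid carriers rose as well: Fabp4 went from 348, 353 and 341 to 2499, 1569 and 2008 (2.54 ± 0.27, adjusted p = 1.49e-05) and Fabp5 from 7922, 6905 and 7045 to 32530, 24590 and 27010 (1.94 ± 0.18, adjusted p = 5.26e-06). Of 16 scavenger receptor and lipid uptake genes, 3 were higher and 4 lower (18.8% and 25.0%, beside 12.3% and 10.2% of all genes). Those lower were Marco, Olr1, Cd163 and Stab1, while Cd36 and Msr1 did not pass.

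Of 16 LXR target and cholesterol efflux genes, 5 were higher (31.2%, beside 12.3% of all genes) and 0 lower. Abcg1, which exports cholesterol to high-density lipoprotein, rose from 2015, 1523 and 1559 to 7272, 3792 and 4129 (1.58 ± 0.23, adjusted p = 0.000211). Scarb1 (1.15 ± 0.11), Mylip (1.02 ± 0.22), Lpcat3 (0.77 ± 0.11) and Pltp rose too. Abca1 had 6427, 5270 and 5398 against 7871, 7169 and 6151, and Apoe had 11360, 13410 and 13200 against 19500, 8226 and 8750, both with overlap. Among 37 lysosomal hydrolase and membrane genes 7 were higher and 1 lower (18.9% and 2.7%, beside 12.3% and 10.2% of all genes). Among those higher were Lipa, the acid lipase that frees cholesterol from its esters (1.22 ± 0.21, adjusted p = 0.000564), and Naglu and Gla at 0.88 and 0.79. Of 13 lysosomal protease genes, the cathepsins and Lgmn (legumain), only Lgmn was called (0.71 ± 0.18, adjusted p = 0.00628), and not without Prep-/- M1 replicate 1. No cathepsin gene was called in the fit of all libraries. Ctsb had 218600, 212000 and 205700 normalized counts against 312100, 246300 and 268300 (0.38 ± 0.13, under the fold minimum), and Ctsd had 249600, 274100 and 268200 against 282000, 268600 and 290000 (0.09 ± 0.14).

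**Figure D3:**
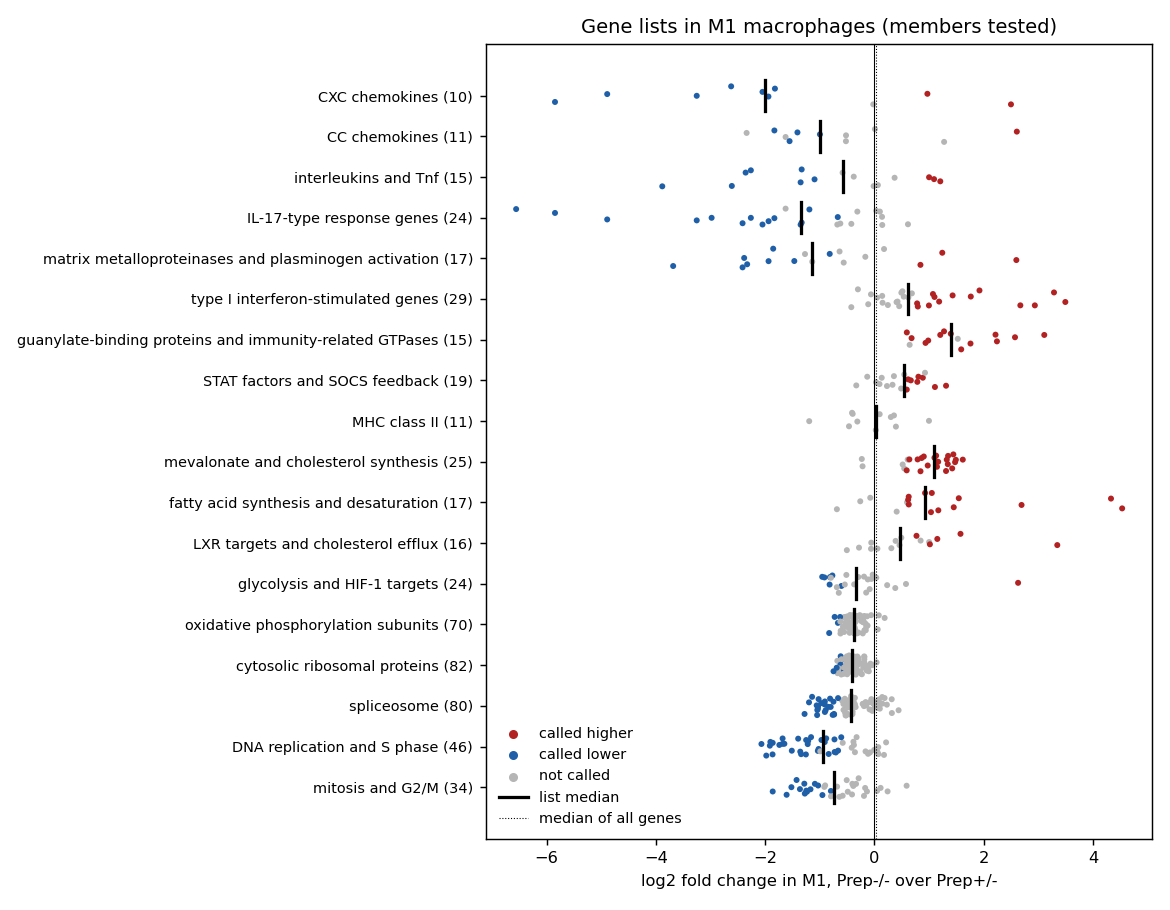
Log2 fold change of Prep-/- over Prep+/- in M1 (horizontal axis) for the members of 18 gene lists, 1 point per gene tested, coloured by call, with a bar at each list's median; the dotted line is the median of all genes at 0.04 and the number of members tested stands after each name. Chemokine and protease lists lie to the left, interferon, GTPase, sterol and fatty acid lists to the right, and ribosomal proteins and oxidative phosphorylation subunits form narrow bands just left of 0. Cxcl5, the leftmost CXC gene, was at a mean of 0.359 normalized counts in Prep-/-, so its position depends on few counts.

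Nos2 and Arg1, whose enzymes share arginine, went opposite ways. Nos2, the inducible nitric oxide synthase, had 807, 481 and 705 normalized counts in Prep+/- and 7996, 2309 and 3443 in Prep-/- (log2 fold change 2.79 ± 0.48, adjusted p = 0.000533). Arg1, which turns the same substrate into ornithine, had 2446, 3141 and 3020 against 553, 551 and 893 (-2.11 ± 0.26, adjusted p = 5.56e-05), and Slc7a2, the arginine transporter, had 3116, 3427 and 3143 against 612, 716 and 886 (-2.13 ± 0.15, adjusted p = 2.96e-07). Each of the 3 kept the genotypes apart, and Nos2 was at 2.10 without Prep-/- M1 replicate 1. Arg2, the other arginase gene, did not pass but lay above 0 (1.02 ± 0.39, adjusted p = 0.0522), and 4 alternatives called it higher, DESeq2 among them. Ass1 (-1.0 ± 0.23), which remakes arginine from citrulline, and Odc1 (-1.21 ± 0.28), which starts polyamine synthesis, fell, and Acod1, the itaconate enzyme, did not pass (0.43 ± 0.43). In the whole list of 14, 2 were higher and 6 lower (14.3% and 42.9%, beside 12.3% and 10.2% of all genes). Of 24 glycolysis and HIF-1 target genes 6 were lower and 1 higher (25.0% and 4.17%, beside 10.2% and 12.3% of all genes). Ldha fell from 53800, 59160 and 53930 to 26920, 33860 and 34140 (-0.81 ± 0.20, adjusted p = 0.00562), and Pfkl, Eno1, Gpi1 and Bnip3 fell by log2 values between -0.96 and -0.60, Gpi1 with a call lost without Prep+/- replicate 2 or Prep-/- replicate 1. The exception was Vegfa, a vascular growth factor, which rose from 204, 179 and 171 to 1411, 1063 and 951 (2.63 ± 0.54, adjusted p = 0.0018). Hif1a had 5457, 4755 and 4772 against 5113, 5124 and 4418.

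Some large gene families shifted by a small, even amount. Of 82 cytosolic ribosomal protein genes, 8 were lower and 0 higher (9.76%, near the background of 10.2%), but 81 had a log2 fold change below 0, with a median of -0.41 that stayed between -0.55 and -0.28 in every alternative. Rpl3 had 11800, 14120 and 13200 normalized counts in Prep+/- and 6835, 10040 and 8613 in Prep-/- (-0.62 ± 0.15, adjusted p = 0.00494), and Rps2 had 15760, 21600 and 18460 against 9068, 12090 and 12070 (-0.75 ± 0.22, adjusted p = 0.0134). Of 70 oxidative phosphorylation subunit genes 4 were lower (5.71%), 67 were below 0 and the median was -0.38. Transcript length moved with this. The ribosomal protein transcripts had a median length of 1049 bases beside 3402 over all genes, and the 492 other genes with a transcript under 1000 bases, outside these 2 lists, had a median log2 fold change of -0.30. Ribosomal protein genes held 2.44% to 2.87% of the counts in the Prep-/- libraries and 2.89% to 3.83% in Prep+/-. The CC chemokine, CXC chemokine and interleukin and Tnf lists, also lower at the median, had short transcripts too, with median lengths of 807, 1315 and 1356 bases. The part of length in any of these shifts was not tested. Without Prep-/- M1 replicate 1 neither the ribosomal protein list nor the oxidative phosphorylation list had a call. Across the fits without 1 library, the lower calls ran from 0 to 31 in the ribosomal protein list. In the oxidative phosphorylation list they ran from 0 to 16. Spliceosome genes, of ordinary length (median 2603 bases), had 23 of 80 lower (28.8%, beside 10.2% of all genes) and 0 higher. Their median log2 fold change was -0.43. Srsf2, a splicing regulator, fell from 4119, 4811 and 4616 to 1538, 1862 and 2184 (-1.28 ± 0.15, adjusted p = 4.5e-05), and U2af2, which reads the 3′ splice site, fell by 0.76 (SE 0.08, adjusted p = 2.3e-05).

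Among DNA replication genes, 30 of 46 fell and 0 rose (65.2%, median -0.94). Mcm5, a subunit of the replicative helicase, had 1663, 1613 and 1525 normalized counts in Prep+/- and 261, 508 and 505 in Prep-/- (-1.91 ± 0.29, adjusted p = 0.000242), and Cdt1, which loads that helicase, had 1006, 1180 and 1066 against 463, 407 and 400 (-1.36 ± 0.18, adjusted p = 0.0001). Pcna, the sliding clamp, did not pass, with 5551, 5963 and 5557 against 7734, 5407 and 6650 (0.21 ± 0.29). Of 34 mitosis genes 14 fell (41.2%, beside 10.2% of all genes) and 0 rose. Ube2c (-1.86 ± 0.34) and Espl1 (-1.36 ± 0.29) were among those that fell. Mki67, the usual proliferation marker, had 1280, 1102 and 1046 against 983, 1171 and 850 and did not pass. Without Prep-/- M1 replicate 1, 29 replication genes and 5 mitosis genes were lower. Myc fell from 516, 577 and 541 to 57.2, 96.0 and 124 (-2.56 ± 0.59, adjusted p = 0.00376), and Cdkn1b, the cell cycle inhibitor p27, rose from 317, 349 and 278 to 802, 651 and 638 (1.15 ± 0.18, adjusted p = 0.000303).

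Stress response genes went both ways. Of 24 unfolded protein response and ATF4 target genes, 8 were higher and 5 lower (33.3% and 20.8%, beside 12.3% and 10.2% of all genes). Those lower were Herpud1 and 4 genes of folding in the endoplasmic reticulum, the chaperone Hsp90b1, the disulfide isomerases Pdia4 and Pdia6, and Sdf2l1, at -1.01 to -0.61 for the last 4. Without Prep-/- M1 replicate 1, 3 of these 5 were lower, and Hsp90b1 was not. Those higher were genes of amino acid supply and of the ATF4 programme. Asns, asparagine synthetase, rose from 694, 585 and 481 normalized counts to 2132, 2466 and 2214 (1.95 ± 0.37, adjusted p = 0.00114), Trib3 from 204, 182 and 103 to 734, 640 and 574 (1.99 ± 0.32, adjusted p = 0.000376), and Atf5 from 867, 770 and 741 to 2576, 2426 and 2330 (1.62 ± 0.17, adjusted p = 1.45e-05). Atf4 itself did not pass (0.44 ± 0.17, adjusted p = 0.0523), with 6575, 6967 and 6021 against 8845, 8814 and 8872, which did not overlap. Among 17 Nrf2 antioxidant genes 2 rose (Cat and Sqstm1) and 2 fell (Gsr and Nqo1), which is 11.8% each way and close to the shares of all genes. Hmox1 had 99870, 101700 and 104200 against 100500, 81350 and 93900.

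Of 21 macrophage lineage factor genes 3 rose and 3 fell (14.3% each way, close to the 12.3% and 10.2% of all genes), and without Prep-/- replicate 3 the lower count was 6. Spi1, which encodes the master regulator PU.1, had 12070, 14410 and 14500 normalized counts against 13350, 11260 and 12460 (-0.14 ± 0.12), and Id1 and Id3, inhibitors of helix-loop-helix factors, fell by 2.26 and 2.02 on the log2 scale. Of 11 MHC class II genes 0 were called, and their median was 0.02; H2-Ab1 had 872, 1178 and 934 against 392, 445 and 467 (-1.19 ± 0.54, adjusted p = 0.0959). At an unadjusted p under 0.05 by edgeR's test 2 of the 11 passed, beside 5582 of all 12021 genes, and DESeq2 called 0. Fits of the M1 libraries alone called H2-Ab1 lower. Of 15 costimulatory and checkpoint genes 3 rose and 3 fell (20.0% each way). Cd274, which encodes PD-L1, rose from 5448, 4221 and 4867 to 23450, 9787 and 12420 (1.65 ± 0.31, adjusted p = 0.00095), Cd40 rose by 0.89, and Cd80 fell from 479, 488 and 519 to 193, 259 and 279 (-1.02 ± 0.15, adjusted p = 0.000209). Cd86 had 409, 397 and 481 against 494, 285 and 416, with overlap. In the phagocytic list of 19, 5 rose and 2 fell (26.3% and 10.5%), but without Prep-/- M1 replicate 1 the counts were 2 and 1. In the fit of all libraries Mertk, a receptor for dying cells, rose by 1.23 and its ligand Gas6 by 0.95.

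The effect of Prep loss in M1 was compared with that in M0 and in M2 by a test of the difference between the effects. It differed from the effect in M0 for 2540 genes (21.1%; 12% higher in M1 and 9.15% lower) and from the effect in M2 for 1435 genes (11.9%; 7.35% higher in M1 and 4.58% lower). These comparisons do not share libraries between the M1 side and the other side. Of the 25 sterol genes 22 had a higher effect in M1 than in M0 and 0 a lower one; in M0, where 32.6% of all genes were called, 15.4% higher and 17.2% lower, 0 of these genes were higher and 10 lower, with a median of -0.54 beside 1.10 in M1. Of the 17 fatty acid genes 13 had a higher effect in M1. Against M2 the effect was higher for 5 sterol genes and 6 fatty acid genes. From M0 to M1, 37.7% of genes changed in Prep+/- and 42% in Prep-/-. LPS lowered Fads2 in Prep+/- cells, with a log2 change of -2.92 from M0 to M1, and raised it in Prep-/- cells, with 2.01 (adjusted p of the difference 0.000486). Phgdh changed by -3.72 and 1.74 in the same way, and Ednrb by -2.11 and 0.88.

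Interferon genes differed the other way from M0. In M0, 27 of the 29 type I interferon-stimulated genes were higher in Prep-/-, with a median of 1.48, and for 12 of them the effect in M1 was lower. In M2, where 6.37% of all genes were higher and 9.82% lower, 1 was higher and 3 lower. The GTPase list was higher in each state, in 14 of 15 genes in M0, 13 in M1 and 10 in M2. Its effect in M1 was lower than in M0 for 6 genes and higher for 1, and lower than in M2 for 2 and higher for 0. The MHC class II genes differed too: 10 of 11 were higher in M0, and for 7 the effect in M1 was lower, with Cd74 at 4.13 in M0 and -0.41 in M1 (log2 fold changes, adjusted p of the difference 0.000332). Ribosomal protein genes had a median of 0.39 in M0 and -0.41 in M1, and the effect was lower in M1 for 42 of 82. The short transcripts outside these lists had a median of 0.16 in M0. DNA replication genes were lower in each state, in 43 of 46 in M0, 30 in M1 and 39 in M2, but the fall was smaller in M1. Their medians were -1.89, -0.94 and -1.51. The effect in M1 was higher than in M0 for 25 genes and lower for 0, and against M2 higher for 9 and lower for 1. In Prep+/- cells LPS itself lowered 42 of the 46, beside 20.9% of all genes. Il1b, the IL-1 beta gene, was lower in M1 and higher in M0, with log2 fold changes of -2.26 and 2.01 (adjusted p of the difference 0.000179), and Cd14 went the same way (-0.93 and 0.85, adjusted p of the difference 0.000282). For Csf3 and Cxcl3 the difference from M0 did not pass (adjusted p = 0.238 and 0.0711), and their M0 means were at most 5.93 normalized counts.

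**Figure D4:**
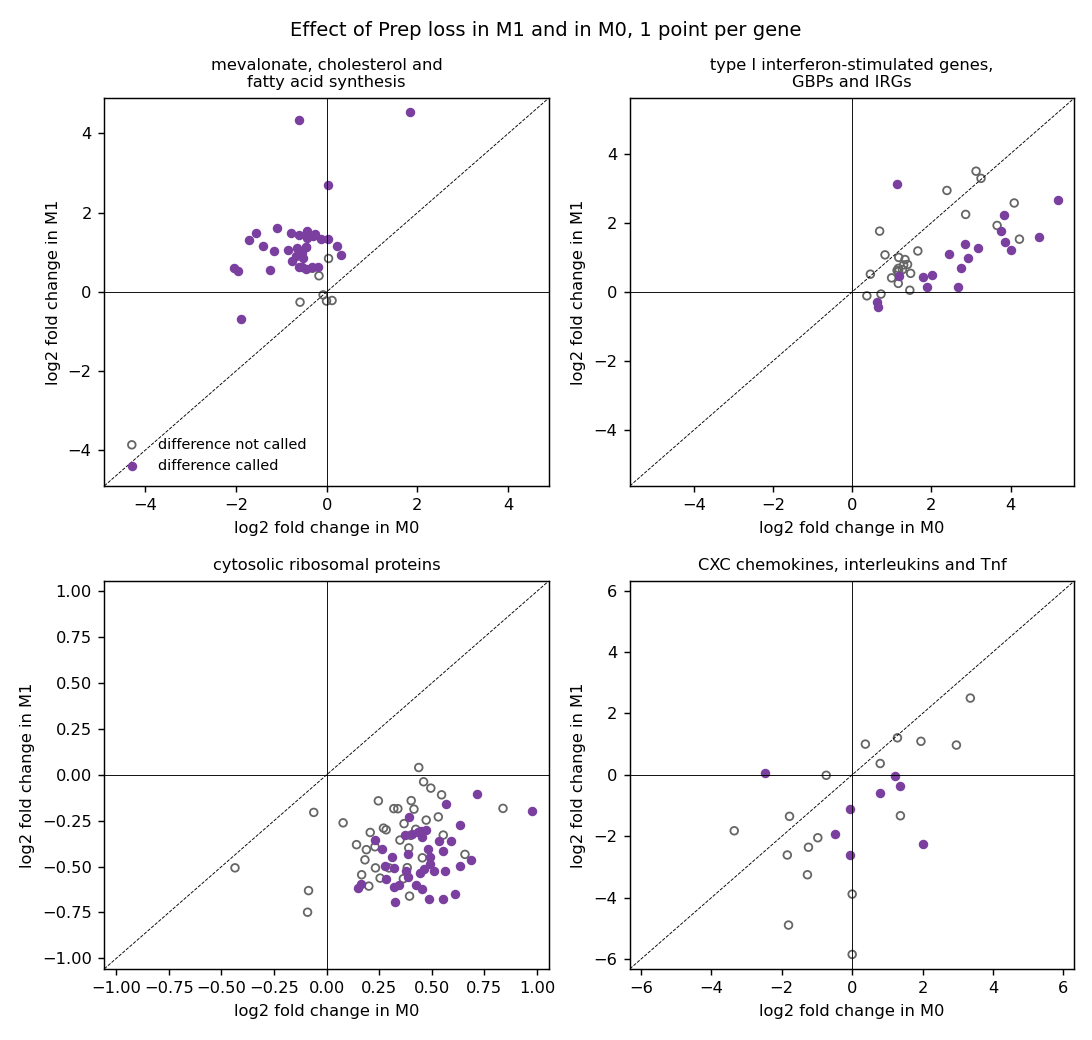
Log2 fold change of Prep-/- over Prep+/- in M1 (vertical axis) against that in M0 (horizontal axis), 1 point per gene, for 4 groups of lists; filled points are genes whose effects in M1 and M0 differed by the test, and the dashed line marks equal effects. Sterol and fatty acid genes sit mostly above the line and left of 0, interferon and GTPase genes mostly below the line but right of 0, and ribosomal proteins in the lower right part.

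Genes that neighbour Prep were called about as often as others. Within 5 Mb on either side, 29 genes were tested, of which 4 were higher and 4 lower (27.6% beside 22.5% of all genes), and over whole chromosomes the share called ran from 19.7% to 26.0%. Of 10 prolyl peptidase genes related to Prep, 0 were higher and Prep was the only one lower.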

How the data were processed

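RNA was measured in bone marrow-derived macrophages by stranded mRNA sequencing of total RNA. The deposited table holds raw counts per gene symbol, which the authors made by trimming with Trimmomatic 0.36, aligning with HISAT2 2.2.1.0 to GRCm39 and assembling with stringtie2. The annotation release, the strand setting of the counting and the handling of reads with several matches are not given in the sources used here, so counts of near-identical genes are uncertain.

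All 18 libraries entered 1 edgeR 4.0.16 quasi-likelihood fit in R 4.3.3, with a coefficient per group, TMM scaling (factors 0.818 to 1.2) and edgeR's filter on low counts, and p-values were adjusted by Benjamini-Hochberg over 12021 genes. Normalized counts are counts scaled to the mean effective library size. The standard error is the log2 fold change divided by the square root of F. Levels are not divided by transcript length and were not compared between genes. Simulated data for the M1 comparison covered 12021 genes. Changes were planted only in a small set of genes with ample counts, so recovery in genes with few counts was not tested. The spread was drawn from edgeR's own estimates, without an outlying library. In these simulated data edgeR recovered 82% of changes of 1 and 100% of changes of 2 on the log2 scale. Of its 185 calls there 1.62% were false, and of the 203 calls of DESeq2 7.88% were false. The measured M1 comparison had 2700 calls, and the share of these that is false was not tested. Promoters and transcript lengths came from GRCm39 and GENCODE, matching 15636 symbols once, and blastn 2.17.0+ found near-identical copies. Replicates differed by 9.5 to 47.3 times counting noise (chi-square per degree of freedom), so none was counted as a duplicate.

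Named genes were Prep, the 12 largest rises and 12 largest falls among called genes over 5 CPM without overlap, the 10 largest changes in CPM, key genes of each list, up to 4 called members of a list in each direction, and the 6 genes with the smallest p for each difference between states. The comparison, the gene lists and the promoters were chosen with earlier results of these data known.

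Some items withheld for evaluation are not reported here.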

Additional observations from a re-analysis of the deposited data

Results flagged for a closer look

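Of 42 named genes examined, 22 had an effect of Prep loss in M1 that differed from that in M0 or M2 by edgeR's test of the difference, with 17 differences from M0 and 18 from M2. Values are the log2 effect in M1 minus that in the other state. Several of these genes were named for the smallness of this p, so their number is a description.

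Of the amino acid genes, Phgdh differed by 5.45 from M0 and 4.61 from M2. Cars, a cysteinyl-tRNA synthetase, differed by 2.17 and 1.13, and Pck2, the mitochondrial form of an enzyme of glucose synthesis, by 1.66 and 2.73. Slc7a2, which carries arginine, differed by -0.87 and -2.50. Among lipid genes, Fads2 differed from M0 by 4.93 and Scd1 by 2.69. Aqp9, a water and glycerol channel, rose in M1 and was lower in M0, with a difference of 8.07 from M0 and 3.10 from M2.

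Of the chemokine genes, Ccl6 differed by -2.18 from M0 and -3.16 from M2, and Ccl9 by -1.85 and -2.55. Thbs1, thrombospondin, had a log2 fold change of -1.66 in M1, 4.63 in M0 and 2.11 in M2, and its differences were -6.30 and -3.77. Acpp differed by -5.08 and -4.33, and Pim2 by -3.22 and -2.85. Rsad2 and Ifit2 differed from M2 by 3.29 and 2.79.

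Ednrb differed by 2.99 from M0 and 5.51 from M2, Nav2 by 3.56 and 1.88, and Dmpk by 3.90 and 4.08, the last with a lower level in Prep-/- in each state. Bhlhe41, a helix-loop-helix repressor, differed from M0 by 2.16 and Gpnmb by 0.92. Phlda1 differed from M2 by -3.98, Upp1 by -2.97 and Sirpb1c by 2.46, and Sirpb1c has a near-identical neighbour, Sirpb1b, with which it may share reads.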

How the results depend on the processing

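A test against a minimum fold change of 1.5, in place of a filter on the estimate, left 361 genes higher and 273 lower in Prep-/- M1, 751 genes whose effect differed between M1 and M0 and 296 between M1 and M2. With no minimum fold change, 2372 were higher and 1998 lower. Leaving out 1 library at a time gave 961 to 1518 higher and 781 to 1346 lower, the lowest in each direction being without Prep-/- M1 replicate 1, and 1876 to 2626 and 975 to 1353 differences from M0 and M2. DESeq2 called 1391 higher and 1402 lower (49.8% higher, beside 54.7% in edgeR with TMM). The same replicate numbers did not mark shared deviations between genotypes (correlations 0.101, 0.010 and 0.069), so the numbers were not taken as pairs. With the replicate number as a block, the fit of all libraries gave 1480 higher, 1265 lower, 2599 differences from M0 and 1510 from M2, and a fit of the M1 libraries alone gave 1479 higher and 1415 lower with the block and 1477 and 1412 without it. No named gene that was called in M1 changed sign in any alternative, whereas some that were not called did, such as Apoe (-0.59 to 0.15), Ptgs2 (-0.12 to 0.29) and Cd86 (-0.30 to 0.07). Of the values of named genes, 4550 stayed on their side of the threshold, 299 lost a call and 44 gained one. Of the counts per gene list, 180 moved by over 1.5 times and 1036 did not. Depth, at 19549993 counts or more per M1 library, limits genes such as Cxcl5 that were at or near 0 in Prep-/-.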
